A study of Mus musculus with 8 samples.

Results

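The comparison set epididymal white fat of mice infused with CL 316243 for 3 days, at 3 nmol per hour, against control fat of the same genotype. It held the 4 arrays whose labels name the control or the 3-day infusion, of 8 arrays in all, and each genotype formed a pair. The groups were a wild type control that received no drug, a wild type 3-day infusion, a Ppara knockout control and a Ppara knockout 3-day infusion, with 1 Affymetrix U74Av2 array each. The other 4 arrays, at 8 hours after 30 nmol and at 6 days of infusion, entered the estimate of the spread. They also entered the choice of intensity floor, genes and probe sets, but no change was computed from them. The labels do not give the strain, sex or age of the mice, or the vehicle of the knockout control. They do not say how many animals lie behind an array or how the knockout was made. With 1 array per genotype and time, no group had a replicate. The spread behind a p-value here is therefore the disagreement between genotypes over all times, mixed with array noise, part of which may be technical. A gene that responded strongly but unequally in the genotypes can thus miss the threshold.

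CL 316243 activates the β3-adrenergic receptor of fat cells, and the cyclic AMP made in response starts the hydrolysis of stored triglyceride. Prolonged β3 stimulation of white fat is known for recruiting macrophages, for proliferation of cells in the stroma and for a shift of fat cells towards the oxidative, heat-producing state of brown fat. PPARα, the product of Ppara, is a nuclear receptor that binds fatty acids and switches on genes of their oxidation in mitochondria and peroxisomes.

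Intensities under 171, the 40th percentile of the pooled values, were raised to that floor before log2 was taken. Where the dimmer array lay at the floor, the change can only be bounded and is given as "at least". Changes in 1 genotype compare 2 arrays and have no replicate check. The tested value is the mean change over both genotypes, with its standard error, from a limma fit of genotype and time over all 8 arrays, and "rose" and "fell" are kept for a Benjamini-Hochberg adjusted p under 0.05 over the 6128 genes tested. In bulk tissue, fewer cells of a type and less RNA per cell cannot be told apart.

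The arrays were first checked against their labels. The Ppara probe set read 395 in the wild type control and 604 in the wild type at 3 days, and 214 and 292 in the knockout. Both knockout values lay below both wild type values but above the floor. Where on the gene this probe set lies relative to the deletion was not determined here. With infusion Ppara changed by 0.53 ± 0.39 (SE) on the log2 scale, with an adjusted p of 0.482 in limma. Adipoq, which encodes the fat cell hormone adiponectin, read between 36010 and 57089 on the 4 arrays.

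Both control arrays carried RNA of another abdominal organ. Of 7 tested epididymis and testis genes, 7 were above the floor in the knockout control, with a summed intensity of 127468 against 3423 in the wild type control, 2450 in the wild type and 2235 in the knockout at 3 days. Lcn5, an epididymal lipocalin, read 52634 there and was not above the floor on the other 3 arrays. The 11 tested pancreas genes summed to 83364 in the wild type control, against 3616 to 4013 elsewhere in the comparison. Ctrb1, encoding chymotrypsinogen, read 24101 in the wild type control and 363 in the knockout control. Arrays outside the comparison carried such RNA too. The knockout at 8 hours summed to 25282 for pancreas and 17614 for epididymis genes. The wild type at 6 days summed to 10996 for epididymis genes. Because the organs differed between the controls, the 2-fold counts of lists below are also given with both 3-day arrays set against both controls. The ratio of 5′ to 3′ Gapdh signal, a sign of RNA integrity, was 0.793 in the knockout control, and the other 7 arrays ranged from 1.04 to 1.18. The same ratio of β-actin was 0.635 and 0.645 in the wild type and knockout controls and 0.782 and 0.869 at 3 days. On both genes both controls lay below both 3-day arrays, so this sign moved with the comparison, and its part in the results below was not tested.

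**Figure D1:**
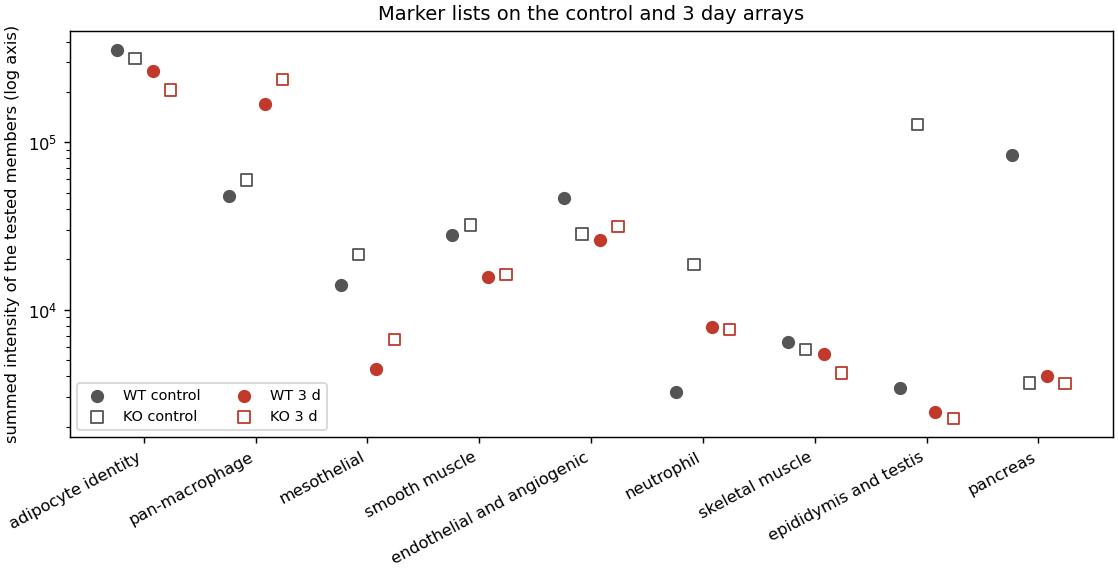
Summed intensity of the tested members of 9 marker lists (log axis) on the wild type (circles) and knockout (squares) arrays, controls in grey and 3 days in red. Pan-macrophage sums were higher on both 3-day arrays and mesothelial and smooth muscle sums lower, while epididymis and testis genes reached 127468 in the knockout control and pancreas genes 83364 in the wild type control.

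Changes in the 2 genotypes were first counted over all genes. In the limma fit 27 genes rose, 0.441% of those tested, and 43 fell, 0.702%, and each of these 70 genes differed 2-fold or more in both genotypes. By fold alone, 263 genes (4.29%) were at least 2-fold higher in both genotypes and 153 (2.50%) at least 2-fold lower. With each 3-day array set against both controls, the counts were 229 (3.74%) and 113 (1.84%). Only 6 genes moved 2-fold in opposite directions. Across genes, which are not independent replicates, the wild type and knockout changes had a Pearson correlation of 0.60 and a Spearman correlation of 0.51, and they share no array.

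The limma calls rested on arrays outside the comparison. All 70 were lost when any 1 array other than a 6-day array was left out, and 272 genes rose (4.44%) and 169 fell (2.76%) without the 6-day arrays, the 70 among them. Scaling by ribosomal protein genes, chosen after seeing the data, moved the median change of all genes by -0.27 in wild type and -0.12 in knockout. It turned the 2-fold counts from 263 higher and 153 lower to 205 and 264. These reference genes were not level before scaling. Of 23 tested ribosomal protein genes, 16 were higher in both genotypes (69.6% against 30.2% of all genes), with medians of 0.26 and 0.19.

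**Figure D2:**
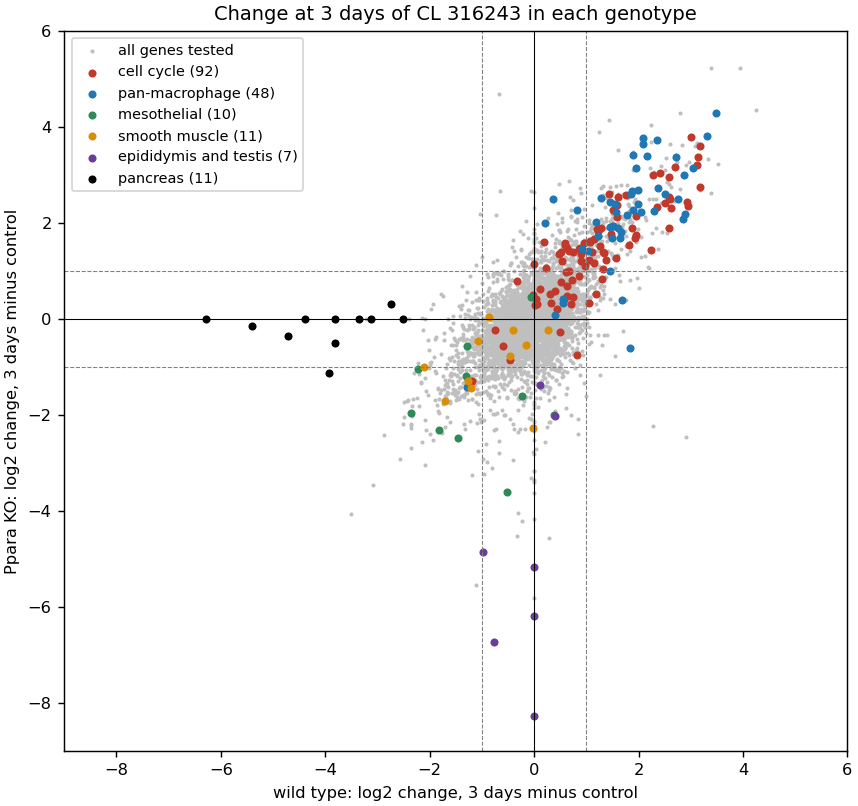
Log2 change from control to 3 days for 6128 genes, in wild type (x axis) and Ppara knockout (y axis), with 6 gene lists coloured and dashed lines at 2-fold. Cell cycle and pan-macrophage genes lie in the upper right, mesothelial and smooth muscle genes in the lower left, and pancreas and epididymis genes along 1 axis each.

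Genes of cell division formed the first programme shared by both genotypes. Of 92 tested cell cycle genes, 46 were at least 2-fold higher in both genotypes (50% against 4.29% of all genes) and 44 were so against both controls. Wild type and knockout medians were 1.07 and 1.41, against 0.00 and -0.01 over all genes. In the limma fit 7 rose and 1 fell. Both 3-day arrays exceeded both controls for 82 of the 92 (89.1% against 24.0% of all genes). Both controls were at the floor for 32 of the 92, against 317 of all 6128 genes. Such members, including some of the mitosis group below, could not read lower at 3 days, which limits these counts of direction.

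The members at mitosis moved most evenly. All 37 genes of mitosis and chromosome structure were higher in both genotypes, 25 of them 2-fold or more. Mki67, which encodes the proliferation antigen Ki-67, read 36 and 42 in the wild type and knockout controls and 1544 and 2070 at 3 days. It rose by at least 3.39 ± 0.38 (SE) on the log2 scale, with an adjusted p of 0.0298 in limma. Birc5, encoding survivin of the chromosomal passenger complex, read 95 and 145 in the controls and 1491 and 1581 at 3 days. It rose by at least 3.17 ± 0.43 (adjusted p = 0.037, limma). Neither gene was above the floor in a control, and both are among the genes named for the size of their change.

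Further mitotic genes past the threshold were Nusap1, a spindle protein, and Kif22, a chromosome-arm kinesin. Nusap1, which is not on the cell cycle list, went from 141 to 792 (wild type) and 184 to 1638 (knockout). Kif22 read 323 and 370 in the controls and 1830 and 1992 at 3 days. Hmgb2, a chromatin protein of dividing cells, read 198 and 262 in the controls and 1224 and 1309 at 3 days, and rose by 2.47 ± 0.28 (adjusted p = 0.0298, limma). Stmn1, a regulator of microtubules, stood at 468 and 998 in the controls and at 4219 and 6763 at 3 days, without passing the threshold (adjusted p = 0.0564, limma). Pclaf, a partner of the replication clamp PCNA, is not on that list either. It was not above the floor in the controls, read 1136 and 1658 at 3 days and rose (adjusted p = 0.0342, limma). Top2a, the topoisomerase of mitotic chromosomes, was not above the floor in either control and read 580 and 1034 at 3 days (adjusted p = 0.129, limma).

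Among cyclins, kinases and their regulators, 6 of 25 were 2-fold higher in both genotypes. Ccna2, which encodes cyclin A of S phase and mitosis, read 324 and 388 in the controls and 1648 and 1956 at 3 days, a rise of 2.34 ± 0.32 (adjusted p = 0.0378, limma). Cks2, a subunit that binds cyclin-dependent kinases, read 125 and 312 in the controls and 1324 and 1609 at 3 days. Its rise was at least 2.66 ± 0.26 (adjusted p = 0.0298, limma). Cdk1, the kinase that drives entry into mitosis, was not above the floor in the controls and read 1369 and 2363, just short of the threshold (adjusted p = 0.0526, limma). The one member that fell was Cdkn1c, an inhibitor of these kinases, from 2029 to 886 (wild type) and 1857 to 756 (knockout) (-1.25 ± 0.17, adjusted p = 0.037, limma). Ccnd3, encoding a D-type cyclin, was also lower in both, by 0.59 and 0.56, without passing. The cyclin group was therefore mixed, unlike the mitosis group.

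Of 30 DNA replication genes, 28 were higher in both genotypes, 15 of them 2-fold or more, and 0 passed the adjusted threshold. Tk1, thymidine kinase, read 253 and 294 in the controls and 2231 and 3042 at 3 days, a change of 3.26 ± 0.59 (adjusted p = 0.0695, limma). Rrm1, a subunit of ribonucleotide reductase, read 221 and 205 in the controls and 1434 and 1838 at 3 days. Both supply deoxynucleotides, and both were named for the size of their change.

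**Figure D3:**
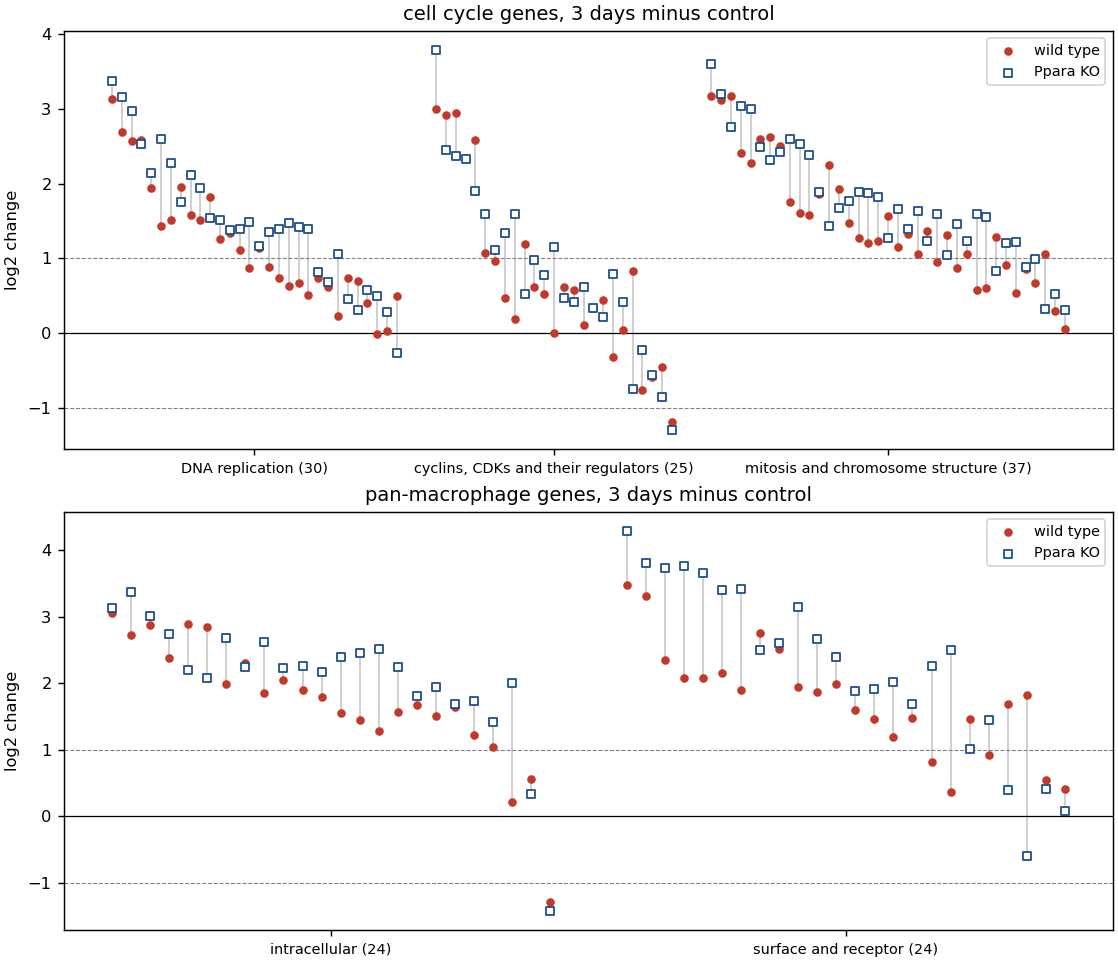
Log2 change from control to 3 days of each tested cell cycle (top) and pan-macrophage (bottom) gene, wild type as red points and knockout as open squares, ordered by mean change within each role; dashed lines mark 2-fold. All 37 mitosis genes lie above 0 in both genotypes, and 38 of 48 macrophage genes lie at or above 2-fold in both.

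Promoters of the cell cycle genes are shown because so many of these genes were higher together. In RefSeq (GRCm38.p6) the 250 bases upstream of each start were searched on both strands for CCAAT, the box bound by NF-Y, and for TTTGAA, the core of the element that marks cell cycle genes; a match of one may overlap a match of the other, and capitals mark both in either orientation. A CCAAT box was found for 51 of 74 tested cell cycle genes with a promoter entry (68.9%), against 37.5% of all 27025 genes and 40.5% of the 4927 genes tested that had one. TTTGAA was found for 22 of the 74 (29.7%), against 18.3% and 13.2%. Both were found for 19 (25.7%), against 6.45% and 5.07%. Among mitosis genes 80.0% held CCAAT. The share among the 46 members that were 2-fold higher, 66.7% of the 36 with an entry, was close to that of the whole list. Of all genes 2-fold higher in both genotypes, 210 had an entry, and 39.0% of those held CCAAT and 22.4% TTTGAA. Of the 4 promoters printed, Mki67 lies at chr7:135716380-135716629 on the minus strand, Birc5 at chr11:117848987-117849236 on the plus strand, Cks2 at chr13:51644982-51645231 on the plus strand and Hmgb2 at chr8:57511593-57511842 on the plus strand.
Mki67: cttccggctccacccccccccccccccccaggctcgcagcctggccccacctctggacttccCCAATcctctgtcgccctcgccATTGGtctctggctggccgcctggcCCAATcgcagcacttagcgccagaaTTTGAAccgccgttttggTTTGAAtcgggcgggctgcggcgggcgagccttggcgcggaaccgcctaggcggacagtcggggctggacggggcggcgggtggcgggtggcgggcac
Birc5: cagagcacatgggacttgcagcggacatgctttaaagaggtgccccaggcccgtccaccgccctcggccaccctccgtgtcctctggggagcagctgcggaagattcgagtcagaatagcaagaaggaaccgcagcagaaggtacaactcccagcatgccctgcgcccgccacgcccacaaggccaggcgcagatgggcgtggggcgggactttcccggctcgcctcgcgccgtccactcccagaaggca
Cks2: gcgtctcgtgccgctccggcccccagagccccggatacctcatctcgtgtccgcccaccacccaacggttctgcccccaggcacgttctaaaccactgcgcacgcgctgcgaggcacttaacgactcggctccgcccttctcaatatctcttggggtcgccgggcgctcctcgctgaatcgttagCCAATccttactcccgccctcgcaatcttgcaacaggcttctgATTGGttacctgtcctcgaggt
Hmgb2: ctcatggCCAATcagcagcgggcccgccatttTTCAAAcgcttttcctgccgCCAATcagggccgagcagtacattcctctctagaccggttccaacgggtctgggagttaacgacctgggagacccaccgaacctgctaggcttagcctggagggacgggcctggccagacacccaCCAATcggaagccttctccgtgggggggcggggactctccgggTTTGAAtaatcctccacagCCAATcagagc
The Mki67 window held 3 CCAAT and 2 TTTGAA matches, that of Hmgb2 4 and 2, and that of Cks2 2 and 0. The Birc5 window held 0 of either, which says only that these letters are not in it. A match is a description of sequence, not a measured binding site.

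Macrophage genes formed the second shared programme, and the largest by share. Of 48 tested pan-macrophage genes, 38 were at least 2-fold higher in both genotypes (79.2% against 4.29% of all genes), and 37 were so against both controls. Wild type and knockout medians were 1.81 and 2.26. Both controls were at the floor for 8 of the 48, which could not read lower at 3 days. The summed intensity went from 47944 to 168210 (wild type) and 59335 to 237083 (knockout), and members above the floor went from 37 to 48 in each. In the fit over 8 arrays 0 of the 48 passed, beside 617 rises and 706 falls at an unadjusted p under 0.05 over all genes. That fit takes its spread partly from the 6-day arrays, where the sum was 68365 in wild type and 322256 in knockout. Without the 6-day arrays 36 of the 48 rose, against 4.44% of all genes.

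Among surface receptors, 17 of 24 were 2-fold higher in both genotypes. Adgre1, which encodes the macrophage marker F4/80, read 388 and 327 in the wild type and knockout controls and 4336 and 6392 at 3 days. Its change was 3.89 ± 0.80 (SE; adjusted p = 0.083, limma). C3ar1, the receptor of the complement fragment C3a, read 344 and 368 in the controls and 3418 and 5160 at 3 days, and Tyrobp, a signalling adaptor of myeloid receptors, 1740 and 2347 against 9917 and 14341. On each of these genes the lower 3-day array stood several times above the higher control.

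Inside the cell, 21 of 24 members were 2-fold higher. Cd68, an endosomal glycoprotein of macrophages, read 1167 and 1737 in the controls and 9676 and 15308 at 3 days, a change of 3.10 ± 0.67 (adjusted p = 0.0851, limma). Spi1, encoding the myeloid transcription factor PU.1, read 320 and 253 in the controls and 2110 and 2619 at 3 days. Mpeg1, a pore-forming protein of macrophages, read 1212 and 1319 in the controls and 8882 and 10611 at 3 days. Ctss, the cathepsin of antigen-presenting cells, read 2905 and 3622 in the controls and 14357 and 17178 at 3 days. One member went the other way, namely Acp5, the tartrate-resistant acid phosphatase, from 8478 to 3469 and from 6951 to 2589 (-1.36 ± 0.25, adjusted p = 0.0709, limma). The change was larger in knockout for 37 of the 48, against 3085 of all 6128 genes, and this difference between genotypes was not tested.

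**Figure D4:**
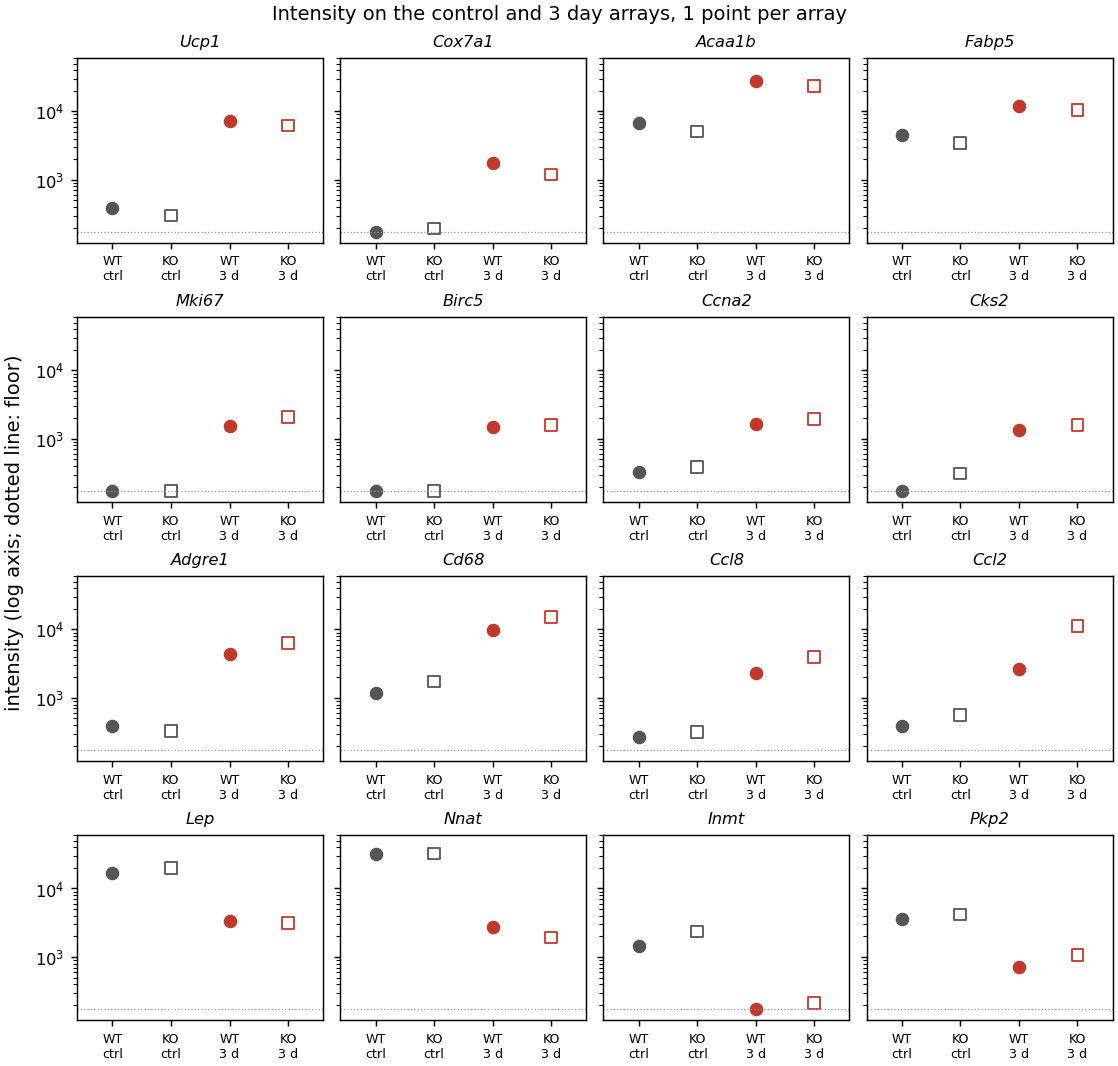
Intensity of 16 genes (log axis, dotted line at the floor of 171) on the wild type (circles) and knockout (squares) arrays, controls in grey and 3 days in red, 1 point per array. In the upper 3 rows both red points lie above both grey points for every gene shown, and in the bottom row, with Lep, Nnat, Inmt and Pkp2, both lie below.

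Markers of other blood cells differed less. Of 11 T and B cell genes 1 was 2-fold higher and 1 lower in both genotypes, 0 and 0 against both controls, and their summed intensity was 11306 and 14723 in the controls and 8030 and 8084 at 3 days. The lower one was Ighm, the heavy chain of IgM, from 8095 to 3825 and from 11339 to 4586. Neutrophil genes numbered 10, with 1 of them, S100a8, 2-fold higher in both. Their sum was 3208 and 18557 in the controls and 7857 and 7612 at 3 days, so the groups overlapped. Of the 18557 in the knockout control, 16051 came from Lcn2, a secreted lipocalin, on the array that carried epididymal RNA. Without Lcn2 the sums were 2671 and 2506 in the controls and 3803 and 4678 at 3 days, so both 3-day arrays then lay above both controls.

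Genes of alternative activation, the macrophage state of tissue repair, were less even. Of 21 tested, 7 were 2-fold higher in both genotypes (33.3%), 6 of them against both controls, and the median was 0.11 in wild type and 1.07 in knockout. Arg1, encoding the arginase of that state, was not above the floor in either control and read 1783 in wild type and 6453 in knockout at 3 days. Its change was at least 4.31 ± 1.15 (adjusted p = 0.123, limma). Chil3, a chitinase-like lectin, was also at the floor in the controls and read 405 and 2570. Mrc1, the mannose receptor, went from 1268 to 3875 (wild type) and 724 to 8290 (knockout), and Folr2, a folate receptor of resident macrophages, from 1299 to 6394 and from 1110 to 9330. The single rise was Ccl8, a chemokine given with its values below. In 19 of the 21 the change was larger in knockout, a difference that was not tested.

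Chemokines that attract monocytes were among the highest. Ccl8 read 270 and 315 in the controls and 2336 and 4000 at 3 days, and rose by 3.39 ± 0.43 (adjusted p = 0.0333, limma). Ccl2 read 388 and 568 in the controls and 2679 and 11208 at 3 days (3.55 ± 1.01, adjusted p = 0.13). Ccl7, Ccl6 and Ccl9 were also 2-fold higher in both genotypes, so that 5 of 16 chemokines were, and for Ccl7 the 3-day arrays were far apart, at 465 in wild type and 3057 in knockout. Over chemokines, cytokines and their receptors, 7 of 38 were 2-fold higher (18.4%), also against both controls, and 0 lower, with 15 of the 38 at the floor in both controls. Il6 and Il1b, cytokines of acute inflammation, were not above the floor on any of the 4 arrays.

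Complement split by component. Of 13 tested genes, 6 were 2-fold higher in both genotypes, also against both controls, among them the receptor genes C3ar1 and C5ar1, which also stand on the macrophage list. C1qb, a chain of the first complement component, read 3345 and 3044 in the controls and 12830 and 19009 at 3 days (2.29 ± 0.55, adjusted p = 0.102, limma), and C1qa and C1qc went the same way. Cfp, properdin, read 576 and 695 in the controls and 3275 and 5975 at 3 days. C2, a serine protease of the classical pathway, fell from 3447 to 1021 and from 2813 to 1229 (-1.47 ± 0.22, adjusted p = 0.0476, limma).

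The lysosome list was higher by less. Of 55 genes, 39 were higher in both genotypes, 9 of them 2-fold or more (16.4%) and 7 against both controls, with medians of 0.42 and 0.55. Ctss and Laptm5 among the 9 also stand on the macrophage list. Lgmn, an asparaginyl protease, read 1360 and 1981 in the controls and 8146 and 14000 at 3 days. Lipa, the acid lipase that hydrolyses cholesteryl esters and triglycerides, read 494 and 525 in the controls and 2885 and 3785 at 3 days (2.70 ± 0.46, adjusted p = 0.0599, limma). Of 13 genes grouped as the proton pump that acidifies the lysosome, 10 were higher and 2 lower in both genotypes. Their medians were 0.42 and 0.36, and 1 was 2-fold higher in both (7.69% against 4.29% of all genes). That member, Atp6v1b2, went from 2928 to 8710 and from 3945 to 9773. Tcirg1, a pump subunit counted here outside that group, went from 465 to 1930 and from 537 to 1759.

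Acute-phase genes did not move as 1 group. Of 14 tested, 3 were 2-fold higher in both genotypes, also against both controls. Orm2, an orosomucoid, was not above the floor in the controls and read 1222 and 2130 at 3 days, a rise of at least 3.24 ± 0.42 (adjusted p = 0.0342, limma). Saa3, a serum amyloid A made in fat and macrophages, read 244 and 389 in the controls and 2810 and 3670 at 3 days (3.38 ± 0.85, adjusted p = 0.109, limma). Orm3, another orosomucoid, went the other way, from 975 to 573 and from 908 to 279.

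The third programme was thermogenic, and it concerned fewer genes. Most members of the oxidative lists described after it were not 2-fold higher in both genotypes. Ucp1, the uncoupling protein of brown fat, had the largest fitted rise of all genes that passed. It read 381 and 300 in the wild type and knockout controls and 7219 and 6192 at 3 days, a rise of 4.31 ± 0.32 (SE; adjusted p = 0.0178, limma), 4.24 in wild type and 4.37 in the knockout. Of 14 brown fat genes, 8 were higher and 2 lower in both genotypes. The 2-fold mark was passed upwards in both by 5 (35.7%), namely Ucp1, Cox7a1, Gatm, Dio2 and Cidea. All of these but Cidea, 4 in number, passed it against both controls. Gatm read 1060 and 1032 in the controls and 2659 and 4143 at 3 days (adjusted p = 0.162, limma). The list was uneven, with knockout changes from -2.24 to 4.37. Its middle change was 0.93 for wild type and 0.42 for knockout. Cox7a1, a muscle and brown fat isoform of a cytochrome oxidase subunit, read 167 and 194 in the controls and 1779 and 1193 at 3 days (at least 3.00 ± 0.54, adjusted p = 0.0689, limma). Dio2, the deiodinase that activates thyroid hormone, was above the floor in the wild type control alone, at 176, and read 812 and 357 at 3 days. Cidea, a lipid droplet protein of brown fat, read 1927 and 1342 in the controls and 4574 and 2883 at 3 days.

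Fatty acid oxidation genes were higher in both genotypes by small amounts. Of 17 mitochondrial genes, 13 were higher in both, 2 of them 2-fold but 0 of them against both controls, with a wild type median of 0.50 and a knockout median of 0.40, and 0 passed. Acadl, the long-chain acyl-CoA dehydrogenase, read 2430 and 1370 in the controls and 5539 and 3174 at 3 days (1.20 ± 0.23, adjusted p = 0.0736, limma). Slc25a20, the carnitine carrier of the mitochondrial membrane, went from 4096 to 10336 and from 2934 to 6047 (1.19 ± 0.20, adjusted p = 0.0599, limma). Etfdh, which passes electrons of β-oxidation to ubiquinone, went from 2259 to 7106 (wild type) and 1903 to 3283 (knockout), 1.65 and 0.79 on the log2 scale. Decr1, an auxiliary enzyme for unsaturated fatty acids, read 3879 and 3008 in the controls and 7762 and 4326 at 3 days.

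In peroxisomes the picture was 1 gene. Acaa1b, the thiolase that ends each peroxisomal cycle, read 6809 and 5092 in the controls and 28039 and 23615 at 3 days, and rose by 2.13 ± 0.26 (adjusted p = 0.0328, limma). It was the only one of 18 peroxisomal genes to be 2-fold higher in both, and the list's medians were 0.16 and 0.02. Acaa1b was also the only rise among 19 PPARα target genes, of which 5 were 2-fold higher in both genotypes (26.3%) but only 2 against both controls, with a wild type median of 0.56 and a knockout median of 0.27. Pdk4, the kinase that shuts pyruvate dehydrogenase, read 2316 and 815 in the controls and 5629 and 5431 at 3 days (2.01 ± 0.40, adjusted p = 0.0792, limma).

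The respiratory chain as a whole did not share a direction between genotypes. Of 63 subunits, 26 were higher and 9 lower in both, against 30.2% and 33.1% of all genes, and the medians were 0.26 in wild type and 0.00 in knockout. The knockout change lay above the wild type change for 5 of the 63, against 3085 of all 6128 genes, a difference that was not tested. Genes of several mitochondrial proteins rose outside these lists, as did Retsat, which is not counted as mitochondrial. All but Ppif were named after their values were seen. Ppif, cyclophilin D, went from 342 to 1734 and from 223 to 1262. Chchd10, a protein of the intermembrane space, went from 8723 to 23358 and from 6388 to 20877. Tomm40, the import pore of the outer membrane, went from 458 to 1107 and from 281 to 836, and Timm8a1, an import chaperone, from 542 to 1942 and from 455 to 1380. Retsat, a retinol saturase of fat cells, rose from 3124 to 9104 and from 2293 to 8687. Adjusted p-values of these 5 in limma were 0.0243, 0.0393, 0.0342, 0.0367 and 0.0298.

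Fat cell genes were mostly lower, by a little for most and by several-fold for leptin and neuronatin. Of 20 adipocyte identity genes, 15 were lower in both genotypes, 5 of them 2-fold (25% against 2.50% of all genes) and 2 of those against both controls, with medians of -0.36 and -0.46. Lep, encoding leptin, read 17097 and 20024 in the controls and 3343 and 3127 at 3 days, and fell by 2.52 ± 0.28 (SE) on the log2 scale (adjusted p = 0.0298, limma). Nnat, encoding neuronatin, a small membrane protein from an imprinted gene, read 31547 and 32360 in the controls and 2782 and 1924 at 3 days, and fell by 3.79 ± 0.45 (adjusted p = 0.0298, limma). For both genes each control stood several times above each 3-day array. Rbp4, a carrier of retinol, went from 18027 to 8397 and from 15465 to 3444 (adjusted p = 0.0955, limma). Agt, angiotensinogen, went from 8253 to 3526 and from 5594 to 2675 (-1.15 ± 0.18, adjusted p = 0.0533, limma). Adipoq differed less, by -0.20 and -0.52.

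Handling of lipid showed a similar mixture. Plin4, a coat protein of lipid droplets, fell from 31404 to 11933 and from 27893 to 9155 (-1.40 and -1.61 on the log2 scale, adjusted p = 0.037, limma), while Plin2, another coat protein, went from 13604 to 25671 and from 13409 to 35619. Fabp5, a fatty acid binding protein shared by fat cells and macrophages, rose from 4586 to 12095 and from 3433 to 10582 (1.51 ± 0.19, adjusted p = 0.0342, limma), the only rise among 12 genes of fatty acid uptake and binding. Lipe, hormone-sensitive lipase, and Fasn, fatty acid synthase, were lower by 0.50 and 0.44 and by 0.52 and 0.91 in wild type and knockout. Elovl6, an elongase, was the one of 15 lipogenic genes 2-fold lower in both, from 1628 to 520 and from 1219 to 454. Pck1, the key enzyme of glyceroneogenesis, differed by -0.92 and -1.05. Cidec, Bscl2 and Prkaca were higher by 0.29 or less in both genotypes and lower under ribosomal protein scaling.

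Genes of the tissue's outer lining were lower in both genotypes. Of 10 mesothelial genes, 8 were lower in both and 5 of them 2-fold (50%), with 3 against both controls, and the medians were -1.29 and -1.78. Upk3b, a uroplakin of mesothelium, fell from 3329 to 1355 and from 3123 to 1381 (-1.24 ± 0.17, adjusted p = 0.037, limma). Pkp2, a desmosomal plakophilin, fell from 3579 to 701 and from 4164 to 1071 (-2.16 ± 0.19, adjusted p = 0.0239, limma). Igfbp6, which binds insulin-like growth factor, went from 4209 to 897 and from 4279 to 2082. These genes read alike in both controls, but the keratins did not. Krt8 and Krt19, of simple epithelia, read 612 and 749 in the wild type control and 2626 and 2461 in the knockout control, the array with epididymal RNA, and the part of that RNA in their change was not tested. With the wild type control alone as reference the knockout median was -0.54.

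Contractile genes of smooth muscle were lower as well. Of 11 tested, 9 were lower in both genotypes, 3 of them 2-fold and 2 against both controls, with medians of -0.86 and -0.76. Myh11, the smooth muscle myosin heavy chain, fell from 2889 to 889 and from 2839 to 866 (-1.71 ± 0.21, adjusted p = 0.0333, limma). Acta2, smooth muscle actin, went from 5058 to 1173 (wild type) and 5015 to 2514 (knockout), and Myl9, a myosin light chain, from 3178 to 1320 and from 3064 to 1249. Actg2, the enteric actin, read 5544 in the knockout control, and the other 3 arrays compared did not exceed 1341. Endothelial and angiogenic genes did not share this direction as a list. Of 22 tested, 9 were lower in both genotypes (40.9% against 33.1% of all genes). The middle change was -0.73 for wild type but only -0.03 for knockout. Vegfb, a growth factor linked to endothelial lipid transport, fell from 6485 to 2372 and from 4247 to 1481 (-1.49 ± 0.21, adjusted p = 0.0407, limma).

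Matrix genes went both ways. Among 18 collagens and fibrous proteins, 12 were higher in both genotypes and 0 were 2-fold, with medians of 0.23 and 0.68. Of all 59 matrix genes, 2 were 2-fold higher in both (3.39% against 4.29% of all genes), both in the remodelling or matricellular group. A further 3 were 2-fold lower in both (5.08% against 2.50%). Timp1, an inhibitor of metalloproteases, read 1666 and 1199 in the controls and 7883 and 15551 at 3 days (2.97 ± 0.59, adjusted p = 0.0768, limma). Postn, periostin, read 3530 and 2461 in the controls and 9169 and 14073 at 3 days. Fmod, a small collagen-binding proteoglycan, fell from 1263 and 909 to below the floor on both 3-day arrays, by at least 2.65 ± 0.23 (adjusted p = 0.0239, limma). Lamb2, a laminin of basement membranes, fell from 1669 to 495 and from 1706 to 502 (-1.76 ± 0.23, adjusted p = 0.0342). In 50 of the 59 the knockout change lay above the wild type change, a difference that was not tested. Inmt, a methyltransferase counted here with fibroblast genes, fell from 1450 and 2340 to 126 and 213 (at least 3.27 ± 0.24, adjusted p = 0.0178, limma).

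Several glutathione enzymes were lower in both genotypes, and 1 of the list fell. Of 28 metallothionein and glutathione genes, 16 were lower in both genotypes, 4 of them 2-fold (14.3%) and 3 against both controls. Gstt1, a theta-class glutathione transferase, fell from 5968 to 1061 and from 5132 to 1247 (-2.27 ± 0.27, adjusted p = 0.0298, limma). Gstm1, Gstm2 and Gpx3 were the other members 2-fold lower, and Gpx3, the plasma glutathione peroxidase, went from 27448 to 6078 and from 22599 to 9019 (adjusted p = 0.0709, limma). Gstm3, on no list, fell from 5343 to 1047 and from 5321 to 1169. The probe sets of Gstm1 and Gstm3 carry the suffix for sequences shared within a family, so signal of near-identical mu-class genes cannot be separated, and those of Pkp2 and Sncg carry it too.

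Circadian clock genes were lower in both genotypes. Of 14 circadian genes 9 were lower in both and 0 higher, 2 of them 2-fold and 1 against both controls, with medians of -0.47 and -0.54, and 0 passed. Nr1d1, the repressor REV-ERBα, read 3778 and 3798 in the controls and 1509 and 770 at 3 days (-1.81 ± 0.28, adjusted p = 0.0512, limma). Bhlhe40, another repressor of the clock loop, read 686 and 1321 in the controls and 302 and 418 at 3 days (adjusted p = 0.0512, limma). The labels give no hour of tissue collection, so time of day and infusion cannot be told apart for these genes.

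Other genes past the threshold were mostly on no list. Adam12, a membrane metalloprotease, was not above the floor in the controls and rose to 1101 and 940 at 3 days. Among the largest falls, Folh1, a glutamate carboxypeptidase, fell from 1863 to 438 and from 2338 to 283, and Eepd1, an endonuclease family member, from 2661 to 598 and from 3216 to 543. St6galnac5, a sialyltransferase, fell from 975 and 775 to below the floor on both 3-day arrays. Gm8096, a predicted gene, fell from 1020 and 1296 to below the floor, and D430019H16Rik from 1070 to 279 and from 978 to 152. In limma the adjusted p of these 6 lay between 0.0178 and 0.0298. A further 8 falls on no list are given next, and all but Sncg were named after their values were seen. Sncg, encoding γ-synuclein, an abundant protein of white fat cells, fell from 13078 to 2541 and from 13926 to 2990 (-2.29 ± 0.17, adjusted p = 0.0178, limma). Aoc3, a surface amine oxidase of fat cells and vessels, fell from 20269 to 6601 and from 14153 to 4305, and Npr3, the clearance receptor of natriuretic peptides, from 9122 to 1934 and from 10751 to 3448. Tmem43, a protein of the inner nuclear membrane, fell from 10885 to 2017 and from 8621 to 2652. Among regulators of transcription and signalling, Notch1, a receptor of cell fate, fell from 723 and 849 to below the floor, and Plagl1, a zinc-finger factor from an imprinted gene, from 1724 to 341 and from 1255 to 357. Bmp6, a bone morphogenetic protein, fell from 697 and 516 to below the floor, and Zbtb16, a zinc-finger repressor, from 3945 to 1448 and from 2995 to 940. For these 8 the adjusted p in limma was under 0.05 and the groups did not overlap. Over all genes, both 3-day arrays lay below both controls for 27.6%.

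**Figure D5:**
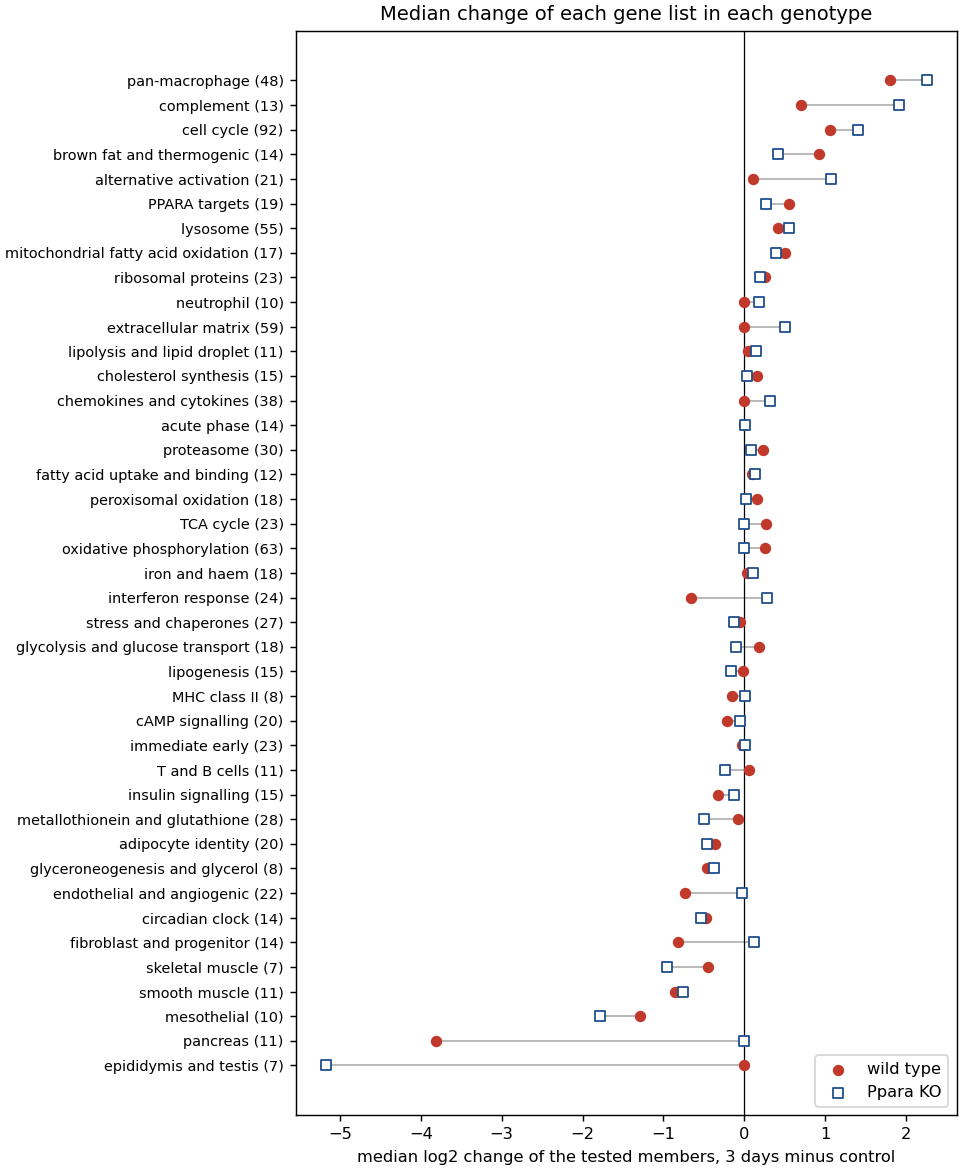
Median log2 change from control to 3 days of the tested members of each list with 5 or more of them, in wild type (red points) and Ppara knockout (open squares), ordered by the fitted median, with the number of members in brackets. Pan-macrophage, complement and cell cycle medians lie above 0 in both genotypes and mesothelial and smooth muscle medians below, while the pancreas and epididymis lists are low in 1 genotype each.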

How the data were processed

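RNA of epididymal fat was measured on Affymetrix U74Av2 arrays, 1 per group, and sample groups were taken from the labels. The authors deposited intensities on a linear scale, as whole numbers with 11.9% of them below 0. On all 8 arrays the deposited values share a median of 320, so the authors had scaled them, by a method not given in the sources used here. From these values, raised to the floor of 171, log2 was computed. Of 12488 probe sets, 66 were array controls, 10833 had 1 symbol in the platform annotation, 396 several and 1193 none listed, and 10817 symbols were updated through RefSeq. Probe sets had to exceed the floor on 2 of 8 arrays, which left 7346, and the brightest stood for each of 6128 genes. Of the 1042 genes with several probe sets, 0 had sets 2-fold apart in direction in both genotypes. Each array is 1 sample, and their number limits the precision.

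The main test was limma 3.58.1 in R 4.3.3, a fit of genotype plus time over 8 arrays with 3 residual degrees of freedom, checked on simulated data. The 43 gene lists and their members were chosen with earlier results of these data known, so lists are described by counts and medians beside those of all genes, with no test. The rule for named genes took the 12 largest rises and falls past the threshold, up to 6 members of each described list by the smaller of the genotype changes, and a set of marker genes; not every list member it took is described. Other genes past the threshold, and those said to be so, were named after their values were seen. Alternatives varied the floor, the filter, the normalization, the variance model, the arrays fitted, the genotype term, the probe set rule and the control array. Scaling by ribosomal protein genes and the use of a single control were added after seeing the data.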

Additional observations from a re-analysis of the deposited data

Results flagged for a closer look

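Of the genes tested, 6 moved 2-fold or more in opposite directions in the genotypes. The difference was not tested, since each change compares 1 array with 1. The difference of the knockout from the wild type change, on the log2 scale, was -5.37 for Lcn2, which read 537 in the wild type control and 4054 at 3 days, and 16051 and 2934 in the knockout. It was -4.50 for Egr2, an early response transcription factor, with 200 and 968 in wild type and 3454 and 741 in knockout. It was -2.43 for Plac8 and -2.61 for Rnf149, both also bright in the knockout control, at 13078 and 9379, the array that carried epididymal RNA; the part of that RNA was not tested. The remaining differences were 3.21 for Iigp1, an interferon-induced GTPase that went from 230 to 1046 in knockout, and 2.25 for Tor2a, which stayed under 500 on all 4 arrays.

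Probe sets without a single gene symbol also carried signal. Of 798 that passed the filter, 29 (3.63%) were at least 2-fold higher at 3 days in both genotypes and 19 (2.38%) lower.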

How the results depend on the processing

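Counts of limma calls, 27 rises and 43 falls, depended on the fit. They were 14 and 17 with the floor at the 25th percentile, 61 and 92 with a robust prior that follows intensity, 52 and 100 under ribosomal protein scaling, and 272 and 169 without the 6-day arrays, singly or together. Without a genotype term 15 rose. They were 0 and 0 in limma with no filter (484 and 721 at an unadjusted p under 0.05), with the 4 arrays of the comparison (616 and 588) and without both 8-hour arrays (507 and 641). Leaving out 1 array gave 0 to 272 rises and 0 to 169 falls, and where it gave 0 the unadjusted counts were 262 to 631 and 250 to 804. Of the 70 calls, 24 were shared at the lower floor and 65 under ribosomal protein scaling. The cause was not tested.

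The 263 genes 2-fold higher ranged from 205 to 328. The 153 lower became 264 under ribosomal protein scaling and 297 against the knockout control alone, and otherwise ranged from 113 to 216. Cell cycle members 2-fold higher numbered 40 to 60 and macrophage members 33 to 47 over the same alternatives. Signs turned for Prkaca (-0.015), Cidec (-0.048) and Bscl2 (-0.042) under ribosomal protein scaling. Over single arrays left out, they turned for Adam7, from -6.47 to 0.29, Ctrb1, from -6.18 to 0.63, and Prss2, from -7.06 to 0.78. No paired analysis was possible because the labels give no replicate numbers, beyond the pairing by genotype that the fit holds as a term.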

Other observations

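Genes outside every list included many that differed as much as the members described, and those named here were chosen after their values were seen. Of the 263 genes 2-fold higher in both genotypes, 129 belonged to no list. Adam8, a metalloprotease of leukocytes, was not above the floor in either control and read 2615 in wild type and 6423 in knockout at 3 days, without passing the threshold (adjusted p = 0.132, limma). Apobec1, an RNA-editing cytidine deaminase, read 699 and 872 in the controls and 7022 and 8867 at 3 days. Uhrf1, which maintains DNA methylation in dividing cells, read 113 and 194 in the controls and 1055 and 1314 at 3 days. Cd48, a surface protein of blood cells, read 224 and 171 in the controls and 1361 and 2143. The groups did not overlap in any of these 4 genes, which were picked for large changes. Over all genes, both 3-day arrays lay above both controls for 24.0%.

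Of the 153 genes 2-fold lower in both, 115 belonged to no list. Inhbb, encoding a subunit of activin B, read 874 and 997 in the controls and 44 and 207 at 3 days. Mest, an imprinted gene expressed in growing fat cells, read 2739 and 2113 in the controls and 488 and 638 at 3 days. Penk, encoding proenkephalin, read 7490 and 9232 in the controls and 2296 and 1953 at 3 days. Hsd11b1, the enzyme that regenerates active glucocorticoid in fat, read 4860 and 3638 in the controls and 1297 and 1131 at 3 days (-1.80 ± 0.43 SE, adjusted p = 0.1, limma). Thbd, thrombomodulin of the vessel lining, read 3848 and 3274 in the controls and 720 and 1021 at 3 days.

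Of 30 proteasome genes 15 were higher in both genotypes (50% against 30.2% of all genes) and 5 lower (16.7% against 33.1%), and 0 were 2-fold. Other lists were more mixed at 3 days. Of 24 interferon response genes 0 were 2-fold higher in both genotypes, 2 were higher and 7 lower in both, and the medians were -0.66 in wild type and 0.29 in the knockout. Of 8 MHC class II genes 3 were higher and 4 lower in both, and H2-Aa, a class II chain, read 8464 and 7799 in the controls and 7269 and 8150 at 3 days. Immediate early genes numbered 23, with 3 of them 2-fold higher in both, and Fos went from 191 to 1333 and from 539 to 3550. Of 23 TCA cycle genes 10 were higher and 7 lower in both. Hmox1, the haem oxygenase of the iron and haem list, read 2343 and 2309 in the controls and 7338 and 13313 at 3 days.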
